A study of Mus musculus with 11 samples.

Results

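The 39 genes described here encode the machinery that copies DNA in S phase, together with the G1/S regulators that switch it on. They were chosen by name, and 38 of them are among the 24914 rows of each deposited count file. Tk1, thymidine kinase, was not analysed here. Whole kidneys of 129X1/SvJ mice, 5.5 weeks old, were profiled by mRNA sequencing in 11 libraries. HET PBS (n = 3) comes from Col4a3+/- mice given PBS, KO PBS (n = 4) from Col4a3-/- mice given PBS, and KO antimiR-21 (n = 4) from Col4a3-/- mice given antimiR-21, an oligonucleotide that inhibits the microRNA miR-21. Loss of Col4a3, a chain of the type IV collagen of the glomerular basement membrane, models Alport syndrome, an inherited progressive kidney disease. Every group carries at least 1 targeted Col4a3 allele, so no wild-type kidney is in the series. No source used here states the dose or schedule of antimiR-21. The labels number the replicates without naming the animals, so p-values measure only the spread between these libraries.

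Replication begins in G1 phase, when the origin recognition complex (ORC), Cdc6 and Cdt1 load the ring-shaped MCM helicase onto DNA. At the start of S phase cyclin E and its kinase, with Mcm10, Cdc45 and the GINS complex, turn that ring into a moving helicase. DNA polymerases then extend primers behind it, held by the PCNA clamp, while histones are placed on the new DNA. Transcription of most of these genes is driven by E2F factors and is held down by Rb family proteins in resting cells. Most tubular cells of the kidney rest outside the cell cycle, and they re-enter it during growth and after injury. Because whole kidney was sequenced, fewer cells in S phase and less RNA per cell cannot be told apart.

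The deposited values are counts of reads per gene, and levels are given as CPM, that is, relative to the TMM-scaled size of each library. The libraries held 22.4 to 49.7 M counts each, and the 38 genes had between 16 and 17409 reads in a library. For 9 of the 38 the count was identical in all 11 libraries to that of another gene. Each of these is reported with its partner as 1 joint locus, whose reads could come from either gene: Orc6 with Vps35, Mcm7 with Cops6, Gins2 with Gse1, Prim2 with 1700001G17Rik, Rfc4 with Eif4a2, Lig1 with 6330408A02Rik, Rrm2 with Cys1, Chaf1a with Ubxn6 and Ccne2 with Ints8. The other 29 were counted alone, though Rfc5 and Rfc2 overlap the neighbours Wsb2 and Lat2 and the library kit does not mark strand. Kidney markers were high in every library: Umod of the thick ascending limb stood between 3798 and 6507 CPM and Lrp2 of the proximal tubule between 2439.8 and 3799 CPM. The reads of Col4a3 could not be separated from those of Col4a4, so the genotype labels were not checked by it.

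Libraries also differed in a way that the groups do not explain. The labels give no sex, and reads of the Y-linked helicase gene Ddx3y were present, at 89.7 to 109.5 CPM, in HET PBS replicates 2 and 3, KO PBS replicates 3 and 4 and KO antimiR-21 replicate 4. The other 6 libraries had 0.172 CPM or less. The first principal component of all loci, 47.0% of the variance, separated these libraries. KO antimiR-21 replicate 4 is the only library of its group with Y-linked reads, so results for the set are given with that library and then without it.

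Promoters of the set were searched for words of the E2F type, the letters that E2F factors are known to bind. RefSeq promoter sequences (GRCm38.p6) matched 32 of the 39 genes. These genes had 37 promoter entries. For 26 of the entries the bases after the RefSeq start were found in the first 50 of a GENCODE vM21 transcript. TTTCCCGC, TTTGGCGC, TTTCGCGC or TTTGCCGC was sought on either strand in the 250 bases before the RefSeq start, in any entry of a gene. A match was found for 8 of these 32 genes (25%) and for 2.16% of 27025 genes. The 8 were Cdc6, Mcm5, Mcm6, Mcm7, Orc1, Pola1, Rfc3 and Uhrf1. The CCAAT box, CCAAT on either strand, was in 18 of the 32 (56.2%) against 37.5% of all genes. TTTGAA, the core of the CHR element found in promoters of many mitotic genes, was in 3 of the 32 (9.38%) against 18.3%. A match describes letters in this window and is not a measured binding site. The windows below are shown for those of the 8 whose levels in all 11 libraries are described next, 5′ to 3′ on the gene's strand, with the matching word in capitals. They lie at chr1:128359778-128359841 and chr1:128359719-128359778 (minus strand, both Mcm6), chr4:108579416-108579445 (plus, Orc1), chr5:151651209-151651229 (minus, Rfc3), chr17:56304102-56304161 (plus, Uhrf1) and chrX:93632260-93632319 (minus, Pola1). The Orc1 and Rfc3 windows overlap an exon annotated in GENCODE vM21.
Mcm6, distal window: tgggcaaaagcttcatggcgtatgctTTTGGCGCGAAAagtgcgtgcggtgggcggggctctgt
Mcm6, proximal window: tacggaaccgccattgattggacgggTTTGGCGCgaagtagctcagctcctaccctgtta
Orc1: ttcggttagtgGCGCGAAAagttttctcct
Rfc3: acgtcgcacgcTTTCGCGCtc
Uhrf1: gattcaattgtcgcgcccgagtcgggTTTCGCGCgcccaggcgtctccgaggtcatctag
Pola1: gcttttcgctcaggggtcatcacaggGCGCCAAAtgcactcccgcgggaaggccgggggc
In the distal Mcm6 window TTTGGCGC on the gene's strand overlaps TTTCGCGC on the other strand. The Orc1 and Pola1 matches are the reverse complements of TTTCGCGC and TTTGGCGC.

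Levels differed widely among the members. Per kilobase of exon and averaged over all libraries, Pcna was highest of the genes counted alone, at 13.0 CPM per kb, followed by Mcm6 (9.32), Rfc2 (9.10), Mcm4 (7.64), Mcm5 (7.58) and Mcm3 (7.24). Cdc6 (0.558), Orc1 (0.611) and Ccne1 (0.682) were lowest. The MCM genes counted alone were thus more abundant per length than Cdc6 and Orc1. This did not hold for all licensing factors, as Cdt1 (4.96) stood above Mcm2 (4.52). The joint loci of Rfc4 (75.2), Rrm2 (43.1) and Orc6 (26.2) stood higher still, and these values hold the reads of Eif4a2, Cys1 and Vps35, per kb of exon of the pair.

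Whether inhibition of miR-21 changed replication genes in knockout kidneys was asked by comparing KO antimiR-21 with KO PBS. Of the 38 members, 33 had a lower mean level after antimiR-21, 28 of the 29 counted alone among them. The median log2 difference was -0.19 over the 38 and -0.31 over the 29, against 0.00 over all 14380 loci tested, of which 49.1% were below 0. The differences were small beside the spread. Mcm6, Tyms and Chaf1b, 3 of the 38, were lower at an unadjusted p under 0.05, where 3.46% of all loci were, and 0 were higher (4.76% of all loci). No member passed Benjamini-Hochberg adjustment in edgeR (0 of 38; 0.00% of all loci), and 0 passed in DESeq2, limma-voom or limma on the authors' log2 matrix. The range of the 4 KO antimiR-21 libraries overlapped that of the 4 KO PBS libraries for all 38 members (1.95% of all loci were lower and 2.34% higher without overlap).

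**Figure D1:**
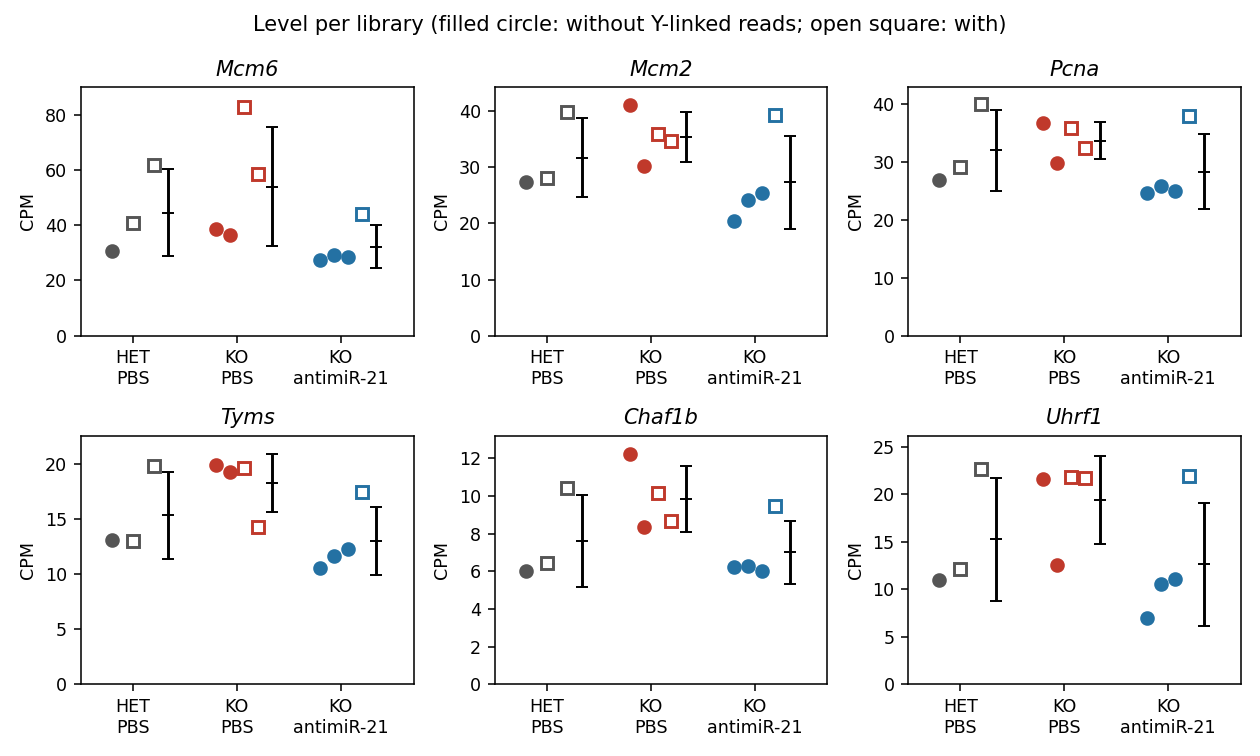
CPM (y axis) of 6 members in the 11 libraries, by group (x axis), with the mean ± SD of each group as a bar; open squares are libraries with Y-linked reads and filled circles those without. In each panel KO antimiR-21 replicate 4, the open square, lies above the other 3 libraries of its group and within or near the KO PBS values.

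Among the origin recognition and licensing genes all 4 were below 0, with a median of -0.27. Orc1, the large ATP-binding subunit of ORC, stood at 1.89, 1.81 and 1.87 CPM in HET PBS, at 2.85, 1.80, 2.82 and 2.601 in KO PBS and at 1.64, 1.77, 1.57 and 2.78 in KO antimiR-21. KO PBS replicate 2 and KO antimiR-21 replicates 1 to 3 were low, and KO antimiR-21 replicate 4 was level with the 3 high KO PBS libraries. The log2 difference of Orc1 was -0.38 (SE 0.230, edgeR adjusted p = 0.738). The locus of Orc6, the smallest ORC subunit, with Vps35 stood at 270.2, 333 and 379 CPM in HET PBS, at 267, 291, 323 and 296 in KO PBS and at 239, 254, 257 and 322 in KO antimiR-21, a difference of -0.13 (SE 0.123, edgeR adjusted p = 0.836). Its KO antimiR-21 libraries 1 to 3 lay under every KO PBS library, and replicate 4 did not. Cdc6 and Cdt1, which load the MCM ring, had differences of -0.37 and -0.16, and Cdc6 stood at 2.02, 1.99, 1.96 and 3.96 CPM in KO antimiR-21 against 2.40 to 3.76 in KO PBS.

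The 6 subunits of the MCM helicase core, Mcm2 to Mcm7, were all below 0 (median -0.35). Mcm6 had the lowest difference of the whole set. It stood at 30.7, 41.0 and 61.7 CPM in HET PBS, at 38.5, 36.3, 82.7 and 58.5 in KO PBS and at 27.3, 29.2, 28.6 and 43.9 in KO antimiR-21. KO antimiR-21 replicates 1 to 3 lay below every KO PBS library, while replicate 4 lay above 2 of them, and the KO PBS libraries themselves split into a low and a high pair. The Mcm6 means were 54.0 ± 21.6 CPM in KO PBS (SD, n = 4) and 32.2 ± 7.80 in KO antimiR-21 (SD, n = 4), a log2 difference of -0.74 (SE 0.296, edgeR adjusted p = 0.539); its unadjusted p was 0.0293. Mcm2, another subunit of the ring, stood at 27.4, 28.0 and 39.8 CPM in HET PBS, at 41.0, 30.2, 35.9 and 34.6 in KO PBS and at 20.4, 24.1, 25.3 and 39.4 in KO antimiR-21, a difference of -0.37 (SE 0.197, edgeR adjusted p = 0.682). Again 3 KO antimiR-21 libraries were under all KO PBS libraries and replicate 4 was level with the highest. Mcm3, Mcm4 and Mcm5 had differences of -0.33, -0.14 and -0.38, and the joint Mcm7 locus -0.10. Mcm5 stood at 18.9, 21.3, 19.7 and 46.6 CPM in KO antimiR-21, where replicate 4 was the highest of all 11 libraries.

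The helicase activation genes did not share a direction, with 2 of 4 below 0. Cdc45, a part of the active helicase, stood at 3.39, 5.46 and 9.20 CPM in HET PBS, at 6.79, 5.61, 6.78 and 6.83 in KO PBS and at 4.15, 3.48, 4.86 and 8.56 in KO antimiR-21. Its KO antimiR-21 replicates 1 to 3 were under every KO PBS library and replicate 4 was higher than any KO PBS library, with a difference of -0.31 (SE 0.319, edgeR adjusted p = 0.861). The joint locus of Gins2, a GINS subunit, with Gse1 stood at 60.1, 54.2 and 46.8 CPM in HET PBS, at 47.6, 35.4, 53.5 and 60.8 in KO PBS and at 58.5, 63.4, 50.3 and 54.2 in KO antimiR-21. Its groups overlapped broadly, with KO PBS replicate 2 lowest, and the difference was 0.20 (SE 0.148, edgeR adjusted p = 0.789). Gins1, of the same complex, had -0.08. Mcm10, which assists origin firing, was the only member counted alone that lay above 0, at 0.32. That value came from replicate 4: Mcm10 stood at 7.87, 7.96, 5.35 and 19.5 CPM in KO antimiR-21 and at 7.57, 6.21, 10.6 and 8.23 in KO PBS, and without replicate 4 the difference was -0.22.

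All 7 polymerase and primase genes were below 0 (median -0.16). Pole2, the second subunit of the leading-strand polymerase epsilon, stood at 6.52, 7.82 and 11.6 CPM in HET PBS, at 10.3, 8.72, 12.2 and 10.98 in KO PBS and at 6.56, 5.97, 8.15 and 10.1 in KO antimiR-21. Its replicate 4 of KO antimiR-21 fell inside the KO PBS range and the other 3 under it, with a difference of -0.46 (SE 0.212, edgeR adjusted p = 0.612). Pola1, the catalytic subunit of the priming polymerase alpha, stood at 11.8, 13.9 and 18.2 CPM in HET PBS, at 17.4, 14.1, 15.5 and 15.4 in KO PBS and at 9.29, 11.4, 12.0 and 15.8 in KO antimiR-21, a difference of -0.36 (SE 0.173, edgeR adjusted p = 0.626). The same 3 libraries were under all KO PBS libraries. The other 5, Pole, Pola2, Prim1, the joint Prim2 locus and Pold1, ranged from -0.41 for Pole, the catalytic subunit of polymerase epsilon, to -0.06 for Pold1, that of the lagging-strand polymerase delta. Pold1 stayed between 12.7 and 17.2 CPM in the 11 libraries.

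Of the clamp, clamp loader and single-strand binding genes 5 of 6 were below 0 (median -0.12). Pcna, the sliding clamp that ties polymerases to DNA, stood at 26.9, 29.2 and 39.9 CPM in HET PBS, at 36.6, 29.8, 35.9 and 32.3 in KO PBS and at 24.7, 25.7, 24.9 and 37.9 in KO antimiR-21. In KO antimiR-21, replicates 1 to 3 were within about 1 CPM of each other and under every KO PBS library, and replicate 4 was above every KO PBS library. The difference was -0.25 (SE 0.163, edgeR adjusted p = 0.760). Rfc3, a clamp loader subunit, stood at 9.91, 9.72 and 10.3 CPM in HET PBS, at 14.0, 12.3, 11.9 and 10.8 in KO PBS and at 10.1, 8.73, 10.6 and 13.2 in KO antimiR-21. Its treated replicates 1 to 3 were just under the lowest KO PBS library, with a difference of -0.20 (SE 0.137, edgeR adjusted p = 0.769). The joint locus of Rfc4 and the translation factor Eif4a2 stood at 508, 478 and 526 CPM in HET PBS, at 459, 543, 459 and 463 in KO PBS and at 546, 539.8, 506 and 496 in KO antimiR-21. It went the other way, at 0.12 (SE 0.0840, edgeR adjusted p = 0.775), with KO PBS replicate 2 as high as the treated libraries. Rfc2, Rfc5 and Rpa2, a subunit of the single-strand binding protein RPA, had differences of -0.06, -0.18 and -0.06.

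Both genes of Okazaki fragment maturation were below 0. Fen1, the flap endonuclease that trims the fragments, stood at 9.61, 9.39 and 14.8 CPM in HET PBS, at 14.3, 12.3, 14.4 and 12.0 in KO PBS and at 8.85, 10.6, 9.82 and 15.1 in KO antimiR-21, a difference of -0.26 (SE 0.192, edgeR adjusted p = 0.786). The locus of Lig1, the ligase that seals them, with 6330408A02Rik stood at 25.8, 25.3 and 31.2 CPM in HET PBS, at 35.3, 27.5, 32.7 and 28.3 in KO PBS and at 23.5, 27.2, 24.8 and 35.0 in KO antimiR-21, a difference of -0.16 (SE 0.137, edgeR adjusted p = 0.811). For both, replicate 4 of KO antimiR-21 was at or near the highest level of all libraries and the other 3 were under all KO PBS libraries.

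Of the genes of deoxynucleotide supply, Tyms had the smallest p of the set. Tyms, thymidylate synthase, makes the thymidine nucleotide and stood at 13.1, 13.0 and 19.8 CPM in HET PBS, at 19.8, 19.2, 19.6 and 14.3 in KO PBS and at 10.5, 11.6, 12.3 and 17.4 in KO antimiR-21. KO PBS replicates 1 to 3 were high, KO PBS replicate 4 was low, and KO antimiR-21 replicate 4 lay between. The means were 18.2 ± 2.65 CPM in KO PBS (SD, n = 4) and 13.0 ± 3.08 in KO antimiR-21 (SD, n = 4), a difference of -0.49 (SE 0.192, edgeR adjusted p = 0.531) with an unadjusted p of 0.0252. Rrm1, the large subunit of ribonucleotide reductase, stood at 41.1, 41.9 and 57.1 CPM in HET PBS, at 54.1, 47.9, 57.6 and 47.7 in KO PBS and at 41.9, 41.6, 42.7 and 53.8 in KO antimiR-21, a difference of -0.20 (SE 0.126, edgeR adjusted p = 0.740). The first 3 treated libraries were again under all KO PBS libraries. The locus of Rrm2, its small subunit, with the ciliary gene Cys1 stood at 247, 237 and 237 CPM in HET PBS, at 259.5, 205, 247 and 228 in KO PBS and at 267, 293, 281 and 209 in KO antimiR-21. Here the first 3 treated libraries were the highest of all 11 and replicate 4 among the lowest, with a difference of 0.16 (SE 0.111, edgeR adjusted p = 0.772), and how much of this is Rrm2 cannot be told from joint reads.

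In the chromatin group Chaf1b and Uhrf1 were below 0. Chaf1b, a subunit of the histone chaperone CAF-1 that loads histones behind the fork, stood at 6.01, 6.42 and 10.4 CPM in HET PBS, at 12.2, 8.37, 10.2 and 8.69 in KO PBS and at 6.23, 6.30, 5.99 and 9.47 in KO antimiR-21. KO antimiR-21 replicates 1 to 3 were tightly grouped under every KO PBS library and replicate 4 was inside the KO PBS range. The means were 9.86 ± 1.75 in KO PBS (SD, n = 4) and 6.998 ± 1.66 in KO antimiR-21 (SD, n = 4), a difference of -0.49 (SE 0.220, edgeR adjusted p = 0.592) with an unadjusted p of 0.0446. Uhrf1, which brings the maintenance methyltransferase to new DNA, stood at 10.9, 12.2 and 22.7 CPM in HET PBS, at 21.6, 12.5, 21.9 and 21.7 in KO PBS and at 6.94, 10.6, 11.1 and 21.9 in KO antimiR-21. KO PBS replicate 2 and treated replicates 1 to 3 were low, and treated replicate 4 was level with the other KO PBS libraries. The difference was -0.62 (SE 0.350, edgeR adjusted p = 0.717). Chaf1a, the other CAF-1 subunit, was read only jointly with Ubxn6 and had 0.03.

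The 3 G1/S regulators were all below 0. E2f1, the transcription factor, stood at 5.02, 8.34 and 9.51 CPM in HET PBS, at 12.8, 8.92, 10.1 and 9.59 in KO PBS and at 6.23, 5.25, 7.07 and 13.2 in KO antimiR-21. KO antimiR-21 replicate 4 was the highest of all 11 libraries and the other 3 of its group were under all KO PBS libraries, with a difference of -0.38 (SE 0.286, edgeR adjusted p = 0.787). The locus of Ccne2, a cyclin E gene, with Ints8 stood at 49.0, 57.1 and 59.1 CPM in HET PBS, at 52.0, 49.6, 55.9 and 52.6 in KO PBS and at 47.4, 43.8, 52.7 and 52.2 in KO antimiR-21, a difference of -0.10 (SE 0.0855, edgeR adjusted p = 0.823). Ccne1, the other cyclin E gene, was read at low counts and had -0.36 with an SE of 0.421.

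**Figure D2:**
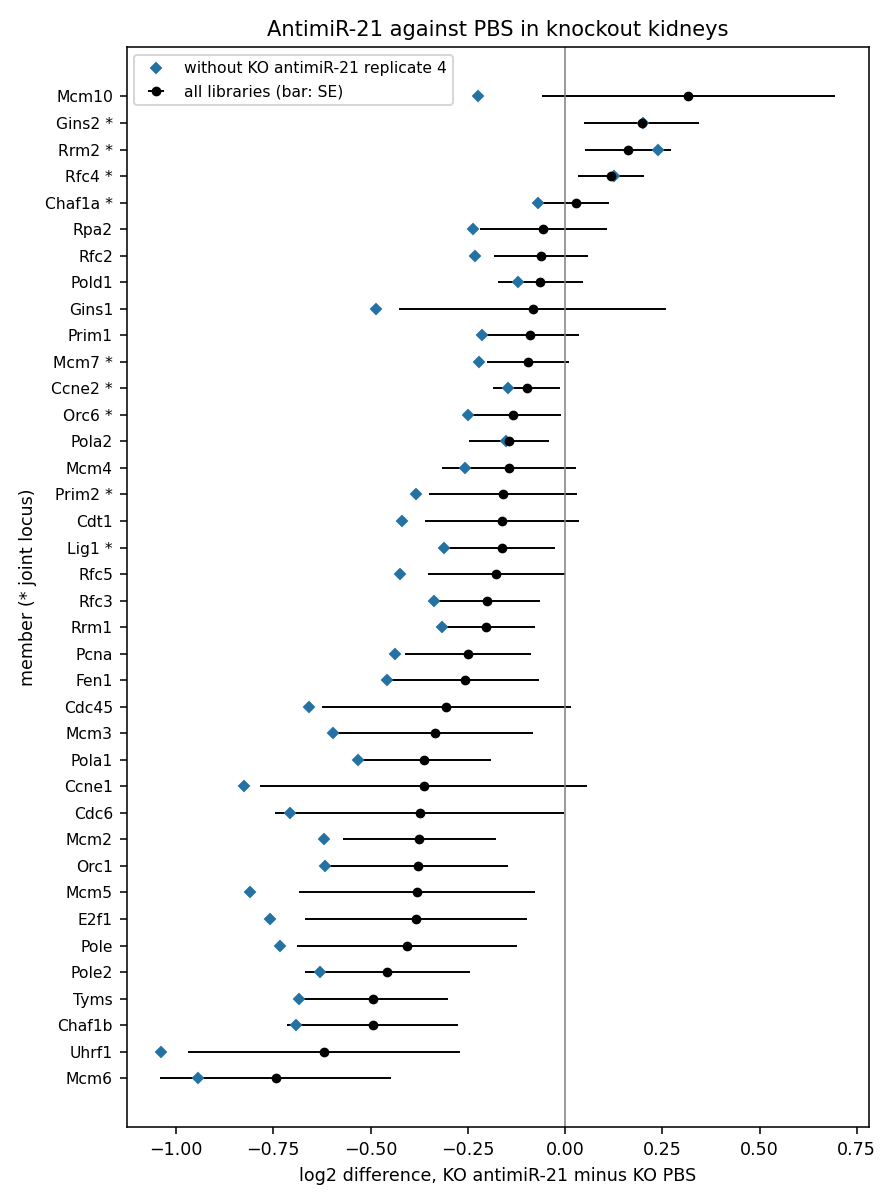
Log2 difference between KO antimiR-21 and KO PBS (x axis) for the 38 members (y axis, sorted), as the edgeR estimate with its SE (circles and bars) and as the estimate without KO antimiR-21 replicate 4 (diamonds). With all libraries 33 of 38 estimates lie below 0, and without that library 35 do, most of them farther from 0.

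The size of the treatment difference depended on KO antimiR-21 replicate 4. The median of the 29 members counted alone, as log2 CPM minus the HET PBS mean, was -0.31, -0.33 and -0.27 in KO antimiR-21 replicates 1 to 3 and 0.38 in replicate 4. In KO PBS it was 0.29, -0.04, 0.29 and 0.15, and in HET PBS -0.19, -0.10 and 0.35. Replicates 1 to 3 of KO antimiR-21 thus lay below all other libraries, and replicate 4 above all of them. For 20 of the 29 genes all of replicates 1 to 3 were under every KO PBS library (7.78% of all loci). Replicate 4 held 1 of the 2 highest levels of the 11 libraries for 18 of the 29 genes, HET PBS replicate 3 for 20 and KO PBS replicate 1 for 12. With replicate 4 left out, 35 of 38 members were below 0 (29 of 29 counted alone), the median was -0.42 (-0.53 for those alone), and 24 were lower at an unadjusted p under 0.05, where 8.48% of all loci were. The lowest estimates were then -1.04 for Uhrf1, -0.94 for Mcm6, -0.83 for Ccne1, -0.81 for Mcm5 and -0.76 for E2f1, and the joint Rrm2 locus was 0.24. Still none passed adjustment in edgeR, and the lowest adjusted p was 0.198, for Mcm2. Without replicate 4 no treated library has Y-linked reads, against 2 of 4 in KO PBS and 2 of 3 in HET PBS. Y-linked status is then unbalanced between the groups, so its part in these values cannot be told apart from that of treatment. Leaving out other libraries moved the count of lower members too: it was 0 without KO PBS replicate 3 (2.52% of all loci) or without KO antimiR-21 replicate 1 (1.83%), 2 (2.20%) or 3 (4.67%). It was 1 without KO PBS replicate 1 (3.24%), 2 without KO PBS replicate 4 (2.60%), 8 without KO PBS replicate 2 (4.15%) and 5 without HET PBS replicate 1 (3.79%) or 3 (4.38%). The share of all loci moved with the library left out as well.

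**Figure D3:**
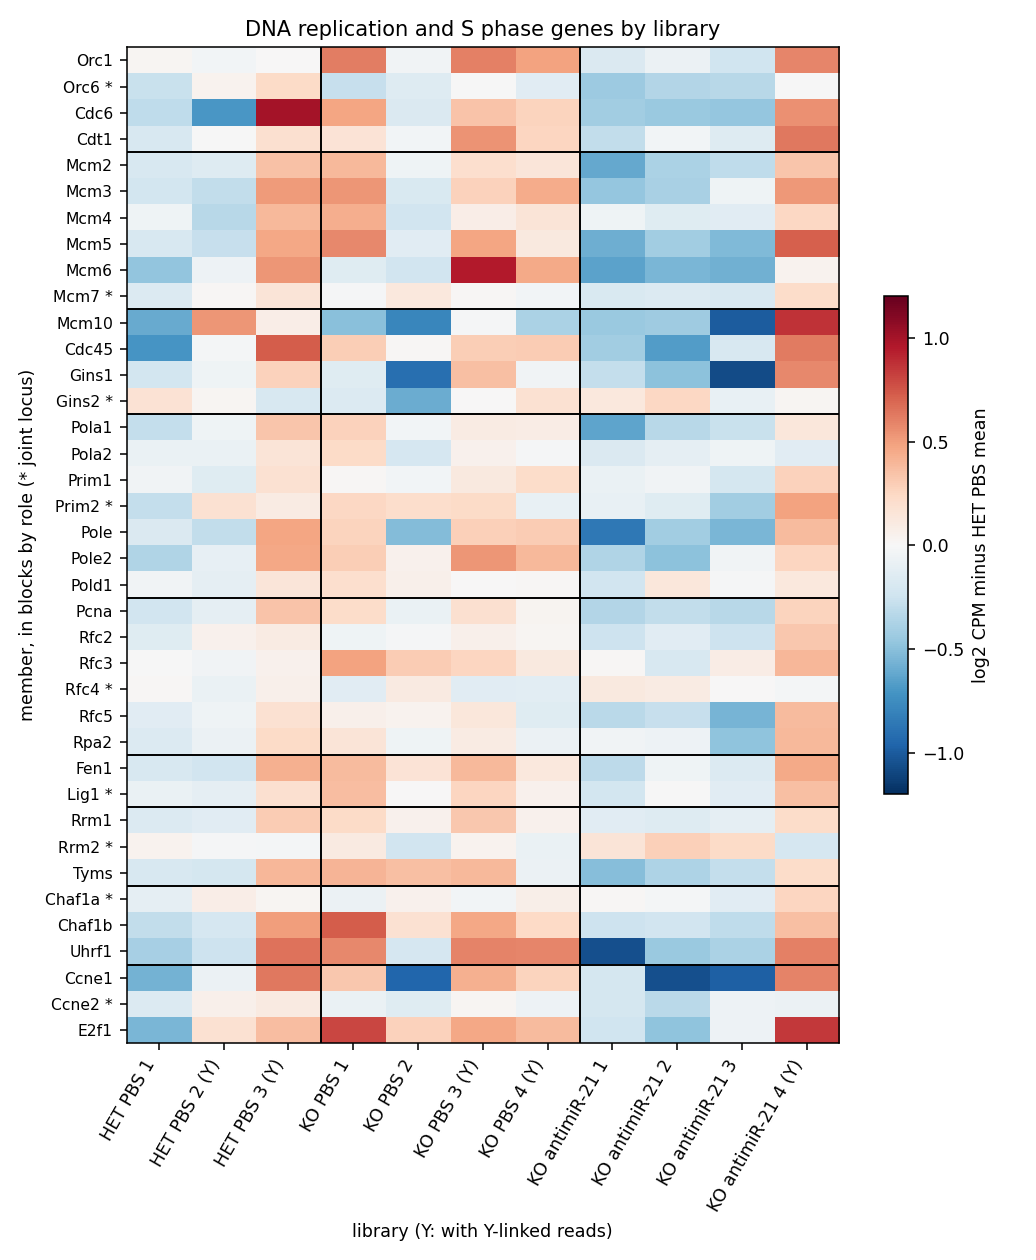
Log2 CPM minus the HET PBS mean (colour, red above and blue below) for the 38 members (rows, in blocks by role) in the 11 libraries (columns, Y marks those with Y-linked reads). KO antimiR-21 replicates 1 to 3 are mostly blue, with medians near -0.3 for the genes counted alone, and replicate 4 is mostly red, with a median of 0.38. The colours use no prior count, and these medians use a prior count of 2.

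Taken over all groups together, levels of these genes differed with Y-linked status. In a fit with that status as a term, a reading added after the data had been seen, all 29 members counted alone had a higher level with Y-linked reads (5 libraries against 6, median log2 difference 0.31, all loci -0.02). Of the 29, 8 passed adjustment (11.1% of all loci were higher at that threshold) and 15 had an unadjusted p under 0.05 (17.9%). Mcm6 was higher by 0.78 (SE 0.122, edgeR adjusted p = 9.43e-04), Mcm10 by 0.92 (SE 0.187, edgeR adjusted p = 0.00507) and Cdt1 by 0.46 (SE 0.111, edgeR adjusted p = 0.0126). Ccne1, Gins1, Cdc45, Pole2 and Rfc2 were the other 5, from 0.85 for Ccne1 to 0.26 for Rfc2, and the joint Orc6 locus also passed (0.28). Within KO PBS, Mcm6 stood at 82.7 and 58.5 CPM in the libraries with Y-linked reads and at 38.5 and 36.3 CPM in those without. The split was not clean in every group. HET PBS replicate 2, which has Y-linked reads, had a median of -0.10, and KO PBS replicate 1, which has none, had 0.29. KO PBS replicate 3, which has them, also had 0.29. In KO antimiR-21 only replicate 4, already seen to stand high, has Y-linked reads, and the term was not fitted without it. In the same fit 26 of 28 mitosis genes were above 0, with a median of 0.47. Of these 28, 2 passed adjustment in either direction, where 11.1% of all loci were higher.

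Treatment was therefore compared within each status. Where Y-linked reads were absent (3 treated libraries, 2 given PBS) 28 of the 29 members counted alone were below 0 with a median of -0.43 on mean log2 CPM. On these libraries edgeR gave 19 of 38 members lower at an unadjusted p under 0.05 (5.69% of all loci). The treated libraries here are replicates 1 to 3, already seen to stand low. These values are therefore not independent of those without replicate 4. Where Y-linked reads were present (1 treated library, 2 given PBS) 3 of 29 were below 0 with a median of 0.16. These values are those of KO antimiR-21 replicate 4, already seen to stand high, and no test is read from 1 library. When the model held both group and Y-linked status, 4 members were lower (4.85% of all loci) and the median over the 38 was -0.15. The treatment differences with and without Y-linked reads differ through that single treated library, so status and any other trait of that library cannot be told apart.

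Untreated disease was addressed by KO PBS against HET PBS. Of the 38 members 31 were above 0 and 27 of the 29 counted alone, with medians of 0.09 and 0.12 (all loci -0.02, with 53.5% below 0). No member was higher (4.21% of all loci) or lower (2.73%) at an unadjusted p under 0.05 in edgeR, and none passed adjustment (0.00%) in any tool run. Rfc3 had the smallest p, 0.0701, and was the only member whose ranges did not overlap (3.55% of all loci were higher and 3.21% lower without overlap). Its levels, given above, ran from 9.72 to 10.3 CPM in HET PBS and from 10.8 to 14.0 in KO PBS, a log2 difference of 0.29 (SE 0.148, edgeR adjusted p = 0.757). Orc1 followed at 0.44 (SE 0.247, edgeR adjusted p = 0.774). Its 3 HET PBS libraries lay between 1.81 and 1.89 CPM, and KO PBS replicate 2 was lower than these while the other 3 KO PBS libraries were above them. Chaf1b came next at 0.37 (SE 0.236, edgeR adjusted p = 0.792). HET PBS replicate 3, whose median was 0.35, was high within its group: without it 6 members were higher at an unadjusted p under 0.05 (4.22% of all loci) and the median was 0.31, and without HET PBS replicate 1 the median was 0.00 with 0 higher.

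By role, the MCM core (6 of 6 above 0, median 0.20), the polymerases and primase (7 of 7, 0.08), Okazaki fragment maturation (2 of 2, 0.21) and the chromatin group (3 of 3, 0.35) were above 0 throughout in KO PBS. These counts include joint loci near 0, that of Mcm7 at 0.02 and that of Chaf1a at 0.002. Licensing, clamp, deoxynucleotide supply and G1/S genes each had 1 member below 0. Helicase activation was the only role with a median below 0 (-0.12), with 3 of 4 below 0, led by Mcm10 at -0.47 (SE 0.401). E2f1 stood at 0.44 (SE 0.309). None of these differences exceeded the spread between libraries by the edgeR test.

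Treated knockout kidneys were also set against heterozygous ones. Of 38 members 28 were below 0 (50.5% of all loci) with a median of -0.10, and the 29 counted alone had -0.13. No member was lower (3.01% of all loci) or higher (5.04%) at an unadjusted p under 0.05, and none passed adjustment in edgeR (0.00695% of all loci, 1 locus) or another tool run. The ranges overlapped for all 38 (2.10% of all loci were lower and 3.88% higher without overlap). The smallest p belonged to the joint Orc6 locus, at -0.29 (SE 0.133, edgeR adjusted p = 0.614), where HET PBS ran from 270.2 to 379 CPM and KO antimiR-21 from 239 to 322. The joint Ccne2 locus had -0.17 (SE 0.0920, edgeR adjusted p = 0.614) and Pola1 -0.27 (SE 0.185, edgeR adjusted p = 0.646). Without KO antimiR-21 replicate 4 the median was -0.26 and 10 members were lower at an unadjusted p under 0.05 (11.1% of all loci), and without HET PBS replicate 3 the median was 0.07 with 0 lower. With Y-linked status as a term the direction turned: 15 of 38 were below 0, with a median of 0.02, and 12 of the 29 counted alone. The 3 comparisons share libraries, so their values are not independent of each other.

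Other genes of the pathway were taken from lists, each read in KO antimiR-21 against KO PBS at an unadjusted p under 0.05, where 3.46% of all loci were lower and 4.76% higher. Of 43 other replication genes 3 were lower and 0 higher, with a median of -0.14. Clspn, claspin, the adaptor of the fork checkpoint, stood at 3.69, 3.02 and 6.22 CPM in HET PBS, at 5.78, 4.81, 7.53 and 4.97 in KO PBS and at 1.75, 2.38, 3.14 and 4.50 in KO antimiR-21 (log2 -0.97 (SE 0.310, edgeR adjusted p = 0.412)). All 4 treated libraries lay under the KO PBS libraries. Dnmt1, the maintenance methyltransferase that Uhrf1 recruits, had -0.25 (SE 0.106, edgeR adjusted p = 0.574). Of 18 E2F, Rb and DREAM regulators 5 were lower and 0 higher (median -0.12), with E2f8, a repressor of E2F targets that is itself made in S phase, at -0.97 (SE 0.283, edgeR adjusted p = 0.370) and the joint locus of cyclin A gene Ccna2 with Exosc9 at -0.49 (SE 0.166, edgeR adjusted p = 0.458).

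Mitosis genes, which act after S phase, were read as well. Of 28 mitosis genes 24 were lower at an unadjusted p under 0.05 and 27 below 0 (median -1.07), though none passed adjustment in edgeR. Ccnb2, a B-type cyclin, stood at 8.84, 10.3 and 18.8 CPM in HET PBS, at 16.1, 15.3, 22.8 and 14.2 in KO PBS and at 5.25, 6.96, 6.87 and 11.9 in KO antimiR-21 (log2 -1.14 (SE 0.292, edgeR adjusted p = 0.334)), with every treated library under every KO PBS library. Foxm1, a driver of mitotic transcription read jointly with Rhno1, had -0.41 (SE 0.103, edgeR adjusted p = 0.334). DESeq2 called both, with adjusted p = 0.0198 for Ccnb2 and 0.0262 for Foxm1. In KO antimiR-21 replicate 4 the mitosis median was -0.0026, below the KO PBS range of 0.28 to 0.82, while the median of the replication members there was above theirs. Whether the lists differ was not tested.

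**Figure D4:**
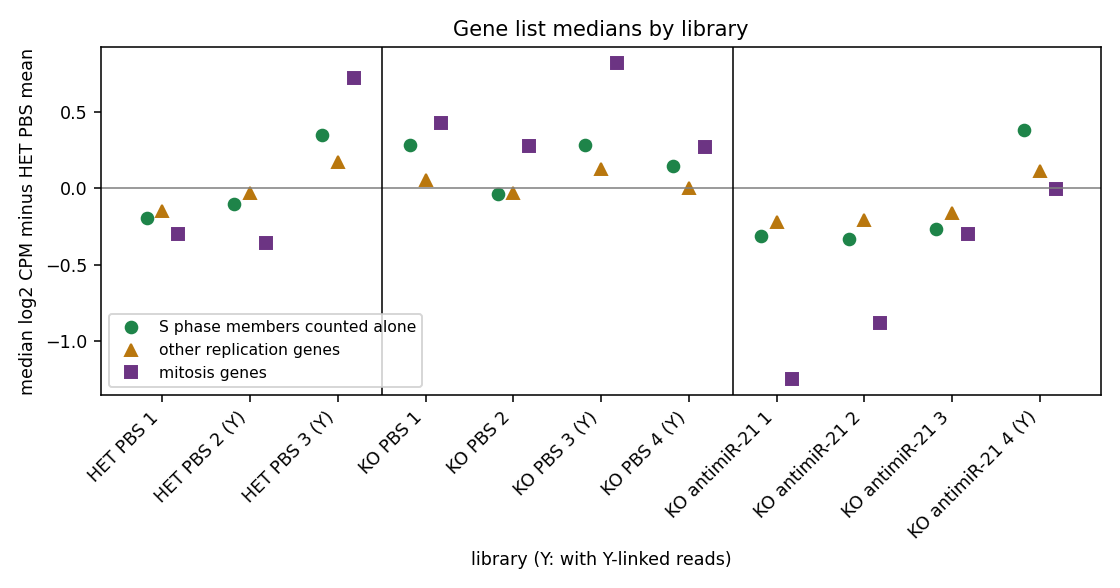
Median log2 CPM minus the HET PBS mean (y axis) of 29 replication members counted alone, 43 other replication genes and 28 mitosis genes in each library (x axis, Y marks libraries with Y-linked reads). In KO antimiR-21 replicate 4 the replication median is 0.38 and the mitosis median -0.0026; in replicates 1 and 2 the mitosis median is lowest, at -1.25 and -0.88.

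Of 15 D cyclin and cell cycle inhibitor genes 3 were lower and 1 higher (median 0.02). Cdk6, a partner of D cyclins, had -0.39 (SE 0.121, edgeR adjusted p = 0.392) and the inhibitor Cdkn1b (p27) 0.15 (SE 0.0590, edgeR adjusted p = 0.528), with all 4 treated libraries above KO PBS for Cdkn1b. Of 18 genes of the DNA damage response at forks 2 were lower and 1 higher (median -0.11), with the joint locus of Brca2 with N4bp2l1 higher at 0.35 (SE 0.105, edgeR adjusted p = 0.385). Clock genes, listed because many cell cycle genes vary over the day, gave 2 lower and 4 higher of 10 (median 0.57). Nr1d2 stood at 183, 198 and 141 CPM in HET PBS, at 118, 121, 119 and 124 in KO PBS and at 199.5, 196, 153 and 208 in KO antimiR-21, every treated library above every KO PBS library, at 0.65 (SE 0.117, edgeR adjusted p = 0.268), and Per3 had 1.58 (SE 0.372, edgeR adjusted p = 0.327). DESeq2 called both, with adjusted p = 9.86e-04 for Nr1d2 and 0.00324 for Per3, and edgeR called Nr1d2 without KO antimiR-21 replicate 3 (adjusted p = 0.0427) and with a replicate block (adjusted p = 0.0461). No source used here gives the hour of kidney collection, and the part of the clock genes in the replication results was not tested.

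Markers of other cell types were read beside these results, as the summed CPM of each list. The 8 tubular injury genes summed to 1043 to 2402 in HET PBS, 1852 to 7542 in KO PBS and 2477 to 3170.3 in KO antimiR-21. The 6 fibroblast and pericyte genes summed to 388 to 640.4 in HET PBS, 659.6 to 1319 in KO PBS and 623 to 1000.3 in KO antimiR-21, and the 8 macrophage and monocyte genes measured of 10 listed to 255 to 304 in HET PBS, 311 to 402 in KO PBS and 316 to 376 in KO antimiR-21. The 8 lymphocyte genes summed to 3.68 to 7.94 in HET PBS, 4.45 to 7.76 in KO PBS and 3.91 to 7.57 in KO antimiR-21, and the 8 proximal tubule genes to 15215 to 17207 in HET PBS, 12156 to 14143 in KO PBS and 13710.5 to 16084 in KO antimiR-21. The KO PBS and KO antimiR-21 ranges overlapped for each of these 5 lists, and the HET PBS and KO PBS ranges did not overlap for fibroblast, macrophage and proximal tubule genes. The macrophage and monocyte sum includes the joint locus of Csf1r with Hmgxb3, at 173 to 225 CPM, whose reads could come from either gene. Of the 8 proximal tubule loci 3 were joint as well. No measured marker was at 0 in all libraries. Their part in the levels of the replication genes was not tested.

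Because the treatment blocks miR-21, the longest annotated 3′ UTR of each member (GENCODE vM21, GRCm38) was searched for ATAAGCT, the match to the miR-21 seed. It was found in 4 of 39 members (10.3%) and in 7.49% of 21153 genes with a UTR. The 4 sites are shown with the match in capitals, at chr2:150931149-150931177 (plus, Gins1), chr2:132249413-132249441 (minus, Pcna), chr4:132778106-132778134 (plus, Rpa2) and chr5:30059583-30059611 (minus, Tyms).
Gins1: tggctaggagcATAAGCTgccagctctta
Pcna: ttgcttaaagaATAAGCTccaaagtaaaa
Rpa2: aagaaattccaATAAGCTagtcaggactc
Tyms: attaatattaaATAAGCTggactgaggca
Their differences between KO antimiR-21 and KO PBS were -0.08 for Gins1, -0.25 for Pcna, -0.06 for Rpa2 and -0.49 for Tyms. All 4 estimates were below 0, as were 28 of the 29 members counted alone, and none passed adjustment in edgeR.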

How the data were processed

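The authors deposited 1 file of estimated counts per gene for each library, in raw form per the file headers; 47.4% of the values above 0 were not whole. They also deposited a matrix of log2 values, which differs from log2 of the count plus 0.5 by a constant in each library and was used only as an alternative. Per the labels' protocols, 150 ng of total RNA entered the Illumina TruSeq RNA v2 preparation. The submitters' processing notes name the build mm10 and the tools STAR, HTSeq 0.5.4p5, SAMtools, FastQC and limma without their roles. No source used here states the annotation or how reads were counted.

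Rows that agreed exactly in each library and summed to at least 50 reads were joined (1513 pairs), which left 17.9 to 39.7 M counts per library. Rounded counts were tested with edgeR 4.0.16 in R 4.3.3: filterByExpr, TMM scaling (factors 0.917 to 1.08), and 1 quasi-likelihood model (glmQLFit, robust) over 11 libraries and 3 groups, two-sided, with Benjamini-Hochberg adjustment over 14380 loci (1502 joint) at 0.05. CPM use the TMM-scaled library sizes, and log2 CPM a prior count of 2 for principal components. The biological coefficient of variation was 0.215. Replicates of a group differed by more than counting noise (chi-square per degree of freedom from 5.90 to 99.4), so each was kept. The procedure was tested on simulated data. Alternatives used DESeq2 1.42.0, limma 3.58.1, other scaling, filters, samples and covariates. A library counts as having Y-linked reads where Ddx3y is above 5 CPM. A log2 difference is the first named group minus the second, and a list is described by its counts and median without a test.

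The members and lists were chosen with earlier results of these data known. Named in full are, within each role, the 2 members with the smallest p in KO antimiR-21 against KO PBS, the 3 highest per kb of exon, the 3 with the smallest p in the other comparisons, any past adjustment (there was none), and 2 genes of each pathway list. Gene coordinates and 3′ UTRs come from GENCODE vM21 (GRCm38, the build mm10 names) and promoters from RefSeq. Every member had at least 16 counts in every library.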

Additional observations from a re-analysis of the deposited data

Results flagged for a closer look

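In 16 of 78 groups of 4 libraries tested for the members, 1 library stood apart from the other 3 by more than Dixon's 95% critical value, and chance flags about 1 in 20 groups. KO antimiR-21 replicate 4 was the high library for Orc1 (2.78 CPM against 1.57 to 1.77 in the other 3), Cdc6 (3.96 against 1.96 to 2.02), Mcm5 (46.6 against 18.9 to 21.3), Mcm6 (43.9 against 27.3 to 29.2), the joint Mcm7 locus (205 against 155 to 158), Pcna (37.9 against 24.7 to 25.7), Rrm1 (53.8 against 41.6 to 42.7) and Chaf1b (9.47 against 5.99 to 6.30). It was also high in the median of the 29 members counted alone, at 0.38 on the log2 scale against -0.33 to -0.27.

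KO PBS replicate 2 was low for Cdc45 (5.61 CPM against 6.78 to 6.83 in the other 3), Pole (7.82 against 13.4 to 13.8), Uhrf1 (12.5 against 21.6 to 21.9) and Ccne1 (0.952 against 2.21 to 2.47), and high for the joint Rfc4 locus (543 against 459 to 463). KO PBS replicate 4 was low for the joint Prim2 locus (9.12 CPM against 11.2 to 11.6) and for Tyms (14.3 against 19.2 to 19.8). Members of 1 library are read from the same RNA, so these values are not independent of each other.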

How the results depend on the processing

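Library scaling by RLE, no filter on low counts and rows as deposited kept every count of calls within 1.5 times of its value and every median within the spread between libraries. DESeq2 called 84 loci in KO PBS against HET PBS, 138 in KO antimiR-21 against KO PBS and 74 in KO antimiR-21 against HET PBS, where edgeR called 0, 0 and 1. None of these loci was a member; of the genes named beside the members, Ccnb2, Foxm1, Nr1d2 and Per3 were called by DESeq2 in KO antimiR-21 against KO PBS. In KO antimiR-21 against KO PBS 5 members were lower at an unadjusted p under 0.05 by DESeq2 (4.04% of all loci), limma-voom (3.48%), limma on the authors' log2 matrix (3.84%) and edgeR on the 2 groups alone (4.42%), against 3 (3.46%). In KO antimiR-21 against HET PBS 1 member was lower by DESeq2 (3.76%), limma-voom called 0 loci and the authors' matrix 2, and in KO PBS against HET PBS that matrix called 1 locus and the 2 groups alone gave 1 higher member (4.03%). With Y-linked status as a term 3 loci were called and 4 members were higher (5.23%) in KO PBS against HET PBS, and 2 loci were called in KO antimiR-21 against HET PBS. In libraries without Y-linked reads 19 members were lower (5.69%) and 1 higher (6.24%) in KO antimiR-21 against KO PBS. The treated libraries there are replicates 1 to 3, already seen to stand low. HET PBS is replicate 1 alone there, so only medians of the members are given against it. They were 0.29 for KO PBS and -0.05 for KO antimiR-21. In libraries with Y-linked reads KO antimiR-21 is replicate 4 alone, so the values restate its levels and only effect sizes are given. The medians of the members were 0.13 against KO PBS and 0.24 against HET PBS. There the estimates, which rest on replicate 4 alone, had the sign opposite to the main fit for several named genes. In KO antimiR-21 against KO PBS these were Orc1 (0.0213), Orc6 (0.0423), Mcm2 (0.14), Gins2 (-0.10), Cdc45 (0.31), Pola1 (0.0191), Pcna (0.14), Rfc3 (0.20), Fen1 (0.17), Lig1 (0.18), Tyms (0.0274), Rrm1 (0.0161), E2f1 (0.41) and Rrm2 (-0.20), and against HET PBS Pola1 (1.48e-05). The cause was not tested. Deviations of same-numbered libraries from their group means had correlations of mixed sign, from -0.44 to 0.63. These cannot decide whether the numbers pair the libraries, and the main fit did not pair them. With a replicate block edgeR called 2 loci in KO PBS against HET PBS, 26 in KO antimiR-21 against KO PBS and 4 in KO antimiR-21 against HET PBS, with 7 members lower in the second (5.0% of all loci) and 2 in the third (8.03%). Leaving out each library in turn gave 0 to 2, 0 to 16 and 0 to 4 loci called in these comparisons. In KO PBS against HET PBS it gave 0 lower and 0 to 6 higher members and a median of 0.00 to 0.31. In KO antimiR-21 against KO PBS it gave 0 to 24 lower and 0 to 1 higher members and a median of -0.42 to -0.15. In KO antimiR-21 against HET PBS it gave 0 to 10 lower and 0 to 1 higher members and a median of -0.26 to 0.07. No member passed adjustment under any of these settings. Low counts limit Ccne1, Gins1, Orc1 and Cdc6, with fewer than 40 reads in their lowest library.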
